A study of Mus musculus with 6 samples.

Results

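The genes of ribosome production were followed in the heads of mouse embryos that lack the histone demethylase Jarid1b. The set held 47 listed genes, chosen by symbol with no filter on their values, but with earlier results of these data known. It took in RNA polymerase I subunits, the factors that act on its template, and the proteins that guide and process pre-ribosomal RNA. The abundant nucleolar proteins Ncl and Npm1 and the growth regulators Myc and Mycn were also listed. A gene was measured where the array annotation paired a probe set with that symbol alone, and its probe set with the highest mean over the 6 arrays was used, which gave 46 of the 47 genes among 19938 genes with such a probe set. Noc2l had no such row, so it has no expression value here and enters the promoter counts alone.

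The comparison was between Jarid1b knockout and Jarid1b heterozygote heads, all at E8.5 and on a C57BL/6 background. Each genotype had 3 samples, every one a pool of 4 heads, hybridised to an Affymetrix mouse Gene ST array, and the study calls them biological replicates without saying whether pools came from separate litters, so that p-values rest on the spread among these 6 pools alone. By the study's methods, the mutant allele came from a loxP-flanked Jarid1b exon deleted with Cmv-cre. Both groups carry it, and the heterozygotes, which keep 1 intact copy, served as the control in place of a wild type. The study reports reduced Jarid1b expression in brains of heterozygote newborns and slight nerve defects in heterozygote embryos. The comparison therefore does not show differences from wild type. The heads were whole and untreated, and in such bulk RNA fewer cells of a type and less RNA per cell cannot be told apart.

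Ribosome production starts in the nucleolus, where RNA polymerase I transcribes the ribosomal RNA precursor with the help of Ubtf and Rrn3. Small nucleolar RNPs (snoRNPs) modify the precursor, the small subunit processome and the large subunit factors cleave and fold it, and Myc proteins are known to raise the transcription of many of these genes. Embryonic neural tissue and neural crest depend strongly on the process: mutations of the treacle gene Tcof1 and of the polymerase subunit genes Polr1c and Polr1d cause Treacher Collins syndrome in humans, a craniofacial disorder.

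No gene of the set passed an adjusted p under 0.05 in limma, where the share over all 21789 probe sets with 1 gene symbol was 0.00459%. That share is a single probe set, the one of the targeted gene. Kdm5b, the current symbol of Jarid1b, had log2 intensities of 7.63, 7.47 and 7.71 in the knockout pools and 9.17, 9.12 and 9.16 in the heterozygote pools, so that it fell by 1.55 on the log2 scale (95% confidence interval -1.71 to -1.38, limma adjusted p = 6.29e-04). The lowest adjusted p in the set was 0.391, for Polr1e, and no gene of the set differed by more than the 1.17-fold of Rrs1. For all 46 measured genes the 95% confidence interval of the log2 fold change lay within 0.5 on either side of 0, and for 43 of them within 0.3, with Polr1e, Rrp9 and Rrs1 as the exceptions.

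The set as a whole had slightly lower values in the knockout heads. Of the 46 genes, 33 had a negative and 13 a positive log2 fold change (knockout minus heterozygote), with a median of -0.039. At an unadjusted p under 0.05, 3 genes were lower (6.52% of the set: Polr1d, Polr1e and Rrp9), against 4.66% of all probe sets, and 1 was higher (Rrs1), against 5.97% of all probe sets. In 11 genes (23.9%) every knockout pool lay below every heterozygote pool, against 9.03% of all probe sets, and in 2 genes (4.35%), Rrs1 and Ncl, every knockout pool lay above, against 8.03%. The 11 were Polr1c, Polr1d, Polr1e, Nolc1, Nop56, Rrp9, Nop10, Utp6, Noc3l, Gnl3 and Myc.

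All 46 genes were among the 7263 brightest of the 21789 probe sets, and bright probe sets in general had lower values in the knockout pools. The 7263 had a median log2 fold change of -0.035, and 70.2% of them were negative, beside 71.7% of the set. Of the 7263, 6.71% were lower and 0.716% higher at an unadjusted p under 0.05, while 16.8% had all knockout pools below all heterozygote pools and 3.06% the reverse. After cyclic loess normalization between arrays, which evens out intensity-dependent differences, the median of the set was -0.0026 and that of the 7263 brightest probe sets 0.0005. After quantile normalization they were -0.001 and 0.001. Under either of these normalizations 24 of the 46 genes were negative, and Polr1e was then the sole gene of the set lower at an unadjusted p under 0.05. The share lower over all probe sets was 4.13% after quantile normalization and 4.26% after cyclic loess.

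**Figure D1:**
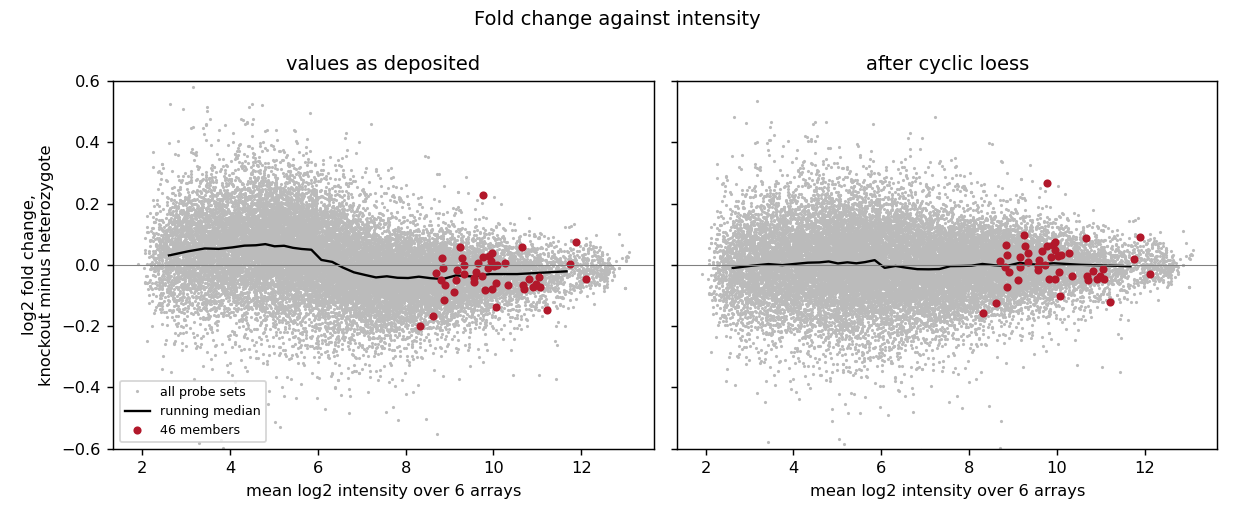
Log2 fold change (knockout minus heterozygote) against mean log2 intensity over 6 arrays, for the values as deposited and after cyclic loess. Gray points are the 21789 probe sets, of which 15 and 17 lie beyond the axis limits of 0.6, the black line is the median in 30 bins, and red points are the 46 genes of the set. As deposited, the black line lies below 0 at the intensities where the red points are, and after cyclic loess it runs along 0.

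The pools of 1 genotype also differed among themselves. Over the 46 genes, the median SD between pools was 0.053 on the log2 scale in knockouts and 0.040 in heterozygotes (n = 3 each). The median deviation of the 46 genes from their own mean over the 6 pools was -0.0035, -0.0046 and -0.031 in knockout pools 1 to 3 and -0.0075, 0.037 and 0.011 in heterozygote pools 1 to 3. Knockout pool 3 was the lowest pool for 19 genes, and heterozygote pool 2 was the highest for 14 and the lowest for 0. The 7263 brightest probe sets had the same extremes, at -0.029 in knockout pool 3 and 0.026 in heterozygote pool 2. Without knockout pool 3 the median log2 fold change of the set was -0.016, and the lowest median, -0.046, came without heterozygote pool 1.

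**Figure D2:**
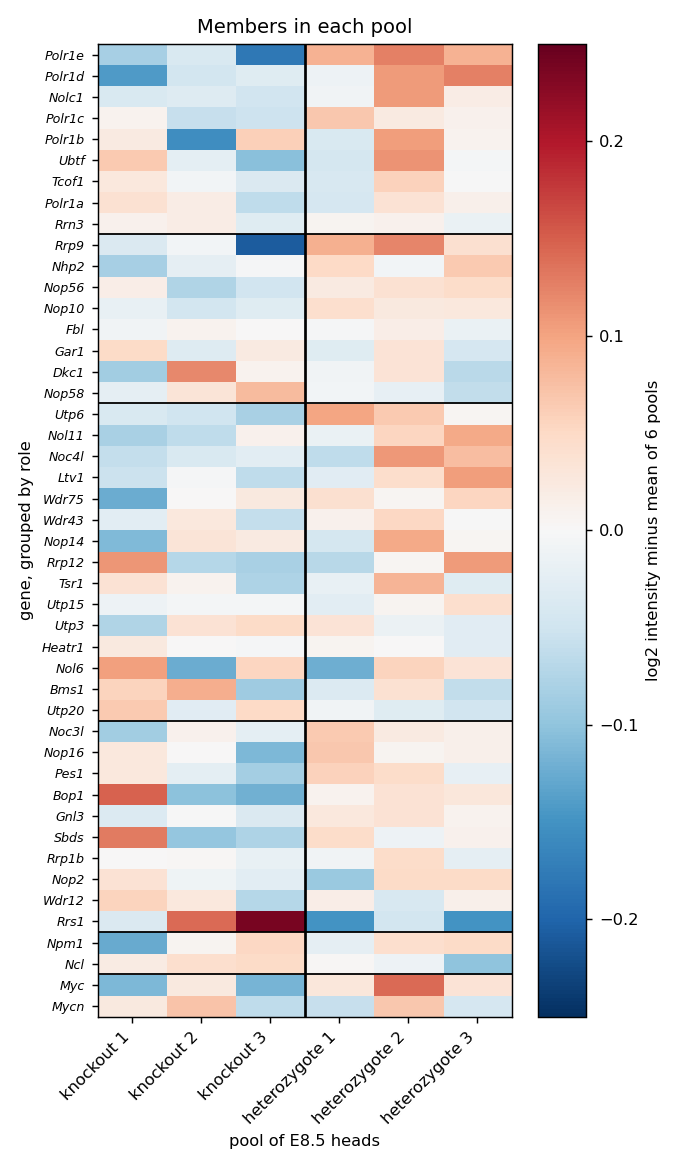
Log2 intensity of each gene minus its mean over the 6 pools, with knockout pools left of heterozygote pools and genes grouped by role from RNA polymerase I at the top to Myc and Mycn at the bottom. Blue is below and red above the mean, and the color scale ends at 0.25 on either side. Knockout pool 3 is the lowest pool for 19 genes and heterozygote pool 2 the highest for 14.

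The RNA polymerase I group held 9 genes, all with a negative log2 fold change between -0.20 and -0.0004 and a median of -0.049 in the deposited values. After quantile normalization and after cyclic loess 6 of the 9 were negative, and Polr1a, Rrn3 and Tcof1 were positive at 0.024 to 0.033. Polr1e encodes a polymerase I subunit of the dimer that aids initiation and elongation, and its log2 intensity was 8.24, 8.28 and 8.14 in the knockout pools and 8.41, 8.44 and 8.40 in the heterozygote pools. The groups did not overlap, and the heterozygote pools lay close together. The log2 fold change was -0.20 (95% confidence interval -0.33 to -0.07, unadjusted p = 0.00887, limma adjusted p = 0.391). It stayed negative and under an unadjusted p of 0.05 in all 15 alternatives run, at -0.23 to -0.16, and its adjusted p ranged over them between 0.279 and 0.626.

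Polr1d and Polr1c encode subunits that polymerase I shares with polymerase III. Polr1d had log2 intensities of 11.07, 11.16 and 11.18 in the knockout pools and 11.20, 11.32 and 11.34 in the heterozygote pools. Heterozygote pool 1 was nearly as low as the highest knockout pool, and the groups did not overlap. The log2 fold change was -0.15 (95% confidence interval -0.29 to -0.0001, limma adjusted p = 0.470), and the unadjusted p of 0.0499 stayed under 0.05 in 5 of the 15 alternatives, and of the fits that left out 1 pool in the one without heterozygote pool 1 alone. It was not under 0.05 after median centring, quantile normalization or cyclic loess, with all rows tested or with array weights. A second probe set annotated to Polr1d gave -0.15 as well, again without overlap, but its number lies among 10 of 10 neighbouring probe sets of chromosome 4, while Polr1d is on chromosome 5. Polr1c had 10.35, 10.29 and 10.29 in the knockout pools and 10.41, 10.36 and 10.35 in the heterozygote pools. The highest knockout pool and the lowest heterozygote pool were almost equal, and the log2 fold change was -0.066 (95% confidence interval -0.19 to 0.055, limma adjusted p = 0.674).

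The catalytic core and the initiation factors had log2 fold changes from -0.049 to -0.0004, with 95% confidence intervals that all included 0. Polr1a, the largest polymerase I subunit, had 10.06, 10.04 and 9.96 in the knockout pools and 9.98, 10.06 and 10.04 in the heterozygote pools, and Polr1b, the other large catalytic subunit, had 9.18, 9.0015 and 9.22 in the knockout pools and 9.12, 9.26 and 9.16 in the heterozygote pools. In both genes the pools of the genotypes overlapped. The log2 fold changes were -0.0048 (95% confidence interval -0.13 to 0.12) and -0.049 (95% confidence interval -0.22 to 0.12). Rrn3, the factor that brings polymerase I to the promoter, had 10.09, 10.10 and 10.05 in the knockout pools and 10.09, 10.09 and 10.07 in the heterozygote pools, a log2 fold change of -0.0004 (95% confidence interval -0.12 to 0.12). Ubtf, the factor that keeps ribosomal DNA open, had 9.62, 9.53 and 9.45 in the knockout pools and 9.51, 9.67 and 9.55 in the heterozygote pools. Its groups overlapped, and the log2 fold change was -0.042 (95% confidence interval -0.20 to 0.12).

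Tcof1 encodes treacle, a nucleolar phosphoprotein that binds polymerase I. Its log2 intensity was 8.88, 8.85 and 8.82 in the knockout pools and 8.81, 8.91 and 8.85 in the heterozygote pools. The lowest and the highest pools were both heterozygote, and the log2 fold change was -0.011 (95% confidence interval -0.14 to 0.11, limma adjusted p = 0.959). Nolc1 encodes the related phosphoprotein Nopp140, which binds snoRNPs. It had 10.66, 10.67 and 10.65 in the knockout pools and 10.69, 10.81 and 10.72 in the heterozygote pools, a log2 fold change of -0.078 without overlap (limma adjusted p = 0.634).

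**Figure D3:**
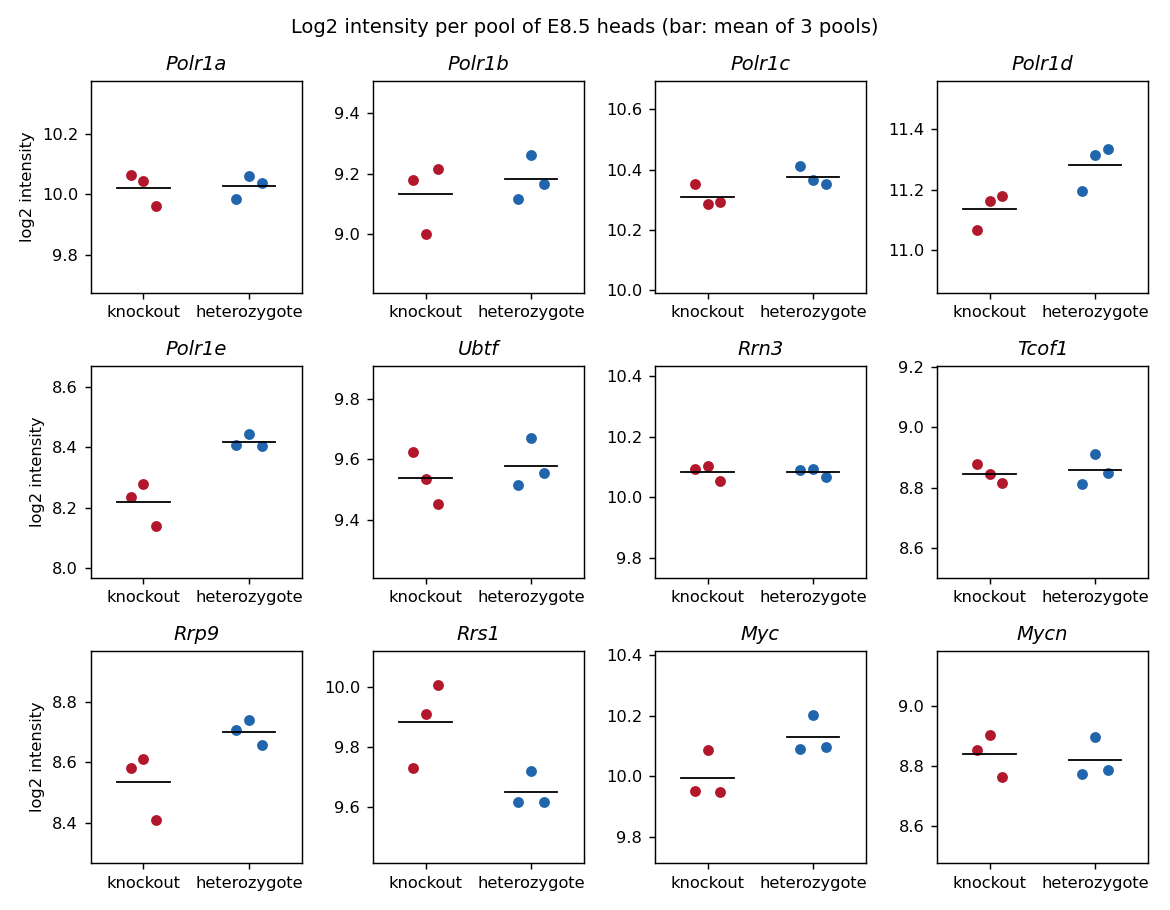
Log2 intensity per pool for 12 genes of the set, with knockout pools in red left of heterozygote pools in blue and a black bar at the mean of 3 pools; every panel spans the same range of log2 intensity around the gene's own mean. Polr1c, Polr1d, Polr1e, Rrp9 and Myc lie lower in all knockout pools and Rrs1 higher, while the pools overlap in the other genes.

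The snoRNP group split evenly, with 4 of 8 genes negative and a median of -0.031. Rrp9, a protein of the U3 snoRNP that is needed for early cleavage of the precursor, had log2 intensities of 8.58, 8.61 and 8.41 in the knockout pools and 8.71, 8.74 and 8.66 in the heterozygote pools. Knockout pool 3 was the lowest by a wide margin, and the groups did not overlap. The log2 fold change was -0.17 (95% confidence interval -0.33 to -0.0086, unadjusted p = 0.0412, limma adjusted p = 0.455). Its unadjusted p was under 0.05 in 8 of the 15 alternatives, and not without knockout pool 3 or without any 1 of the heterozygote pools. Nor was it under 0.05 after quantile normalization, after cyclic loess or with all rows tested.

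Among the proteins common to box H/ACA snoRNPs, which guide pseudouridylation, Nhp2 had 10.98, 11.04 and 11.06 in the knockout pools and 11.11, 11.06 and 11.13 in the heterozygote pools. The groups overlapped by a narrow margin, and the log2 fold change was -0.072. Dkc1, the X-linked pseudouridine synthase of these particles, had 9.81, 10.02 and 9.90 in the knockout pools and 9.89, 9.93 and 9.83 in the heterozygote pools. Pool 2 was the highest in each genotype, and Xist, the RNA that coats the inactive X of female cells, was far lower in these same pools, at 8.82, 3.74 and 8.91 in the knockout pools and 10.17, 4.22 and 10.08 in the heterozygote pools. Uty, on the Y chromosome, had 7.20, 7.48 and 7.17 in the knockout pools and 5.77, 7.60 and 5.77 in the heterozygote pools. Kdm5d and Eif2s3y, also Y-linked, showed the same order of pools between genotypes. Outside pool 2, heterozygotes thus had more Xist and less Y-linked RNA than knockouts, so embryo sex appears unevenly spread between the genotypes. The part of sex in the values of Dkc1 and of all other genes compared here was not tested. Nop10 had a log2 fold change of -0.063 without overlap and Gar1 one of 0.025 with overlap.

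The box C/D proteins carry out ribose methylation of ribosomal RNA. Among them Nop58 had 10.64, 10.69 and 10.74 in the knockout pools and 10.65, 10.64 and 10.60 in the heterozygote pools. The groups overlapped, and the log2 fold change was 0.059. Nop56 had a log2 fold change of -0.071 without overlap, and the methyltransferase gene Fbl one of 0.0018.

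The small subunit group held 15 genes, of which 10 were negative, with a median of -0.028 and a range from -0.11 to 0.058. After quantile normalization or cyclic loess 7 were negative. Utp6, a processome protein, had 8.83, 8.82 and 8.79 in the knockout pools and 8.97, 8.94 and 8.88 in the heterozygote pools. It was the sole gene of this group without overlap, and its log2 fold change was -0.11 (95% confidence interval -0.24 to 0.01, limma adjusted p = 0.495). Nol11, one of the processome proteins also needed for polymerase I transcription, had 9.03, 9.05 and 9.12 in the knockout pools and 9.09, 9.16 and 9.21 in the heterozygote pools. Its groups overlapped, and the log2 fold change was -0.089.

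At the upper end of the group were the processome scaffold Utp20 and the GTPase Bms1. Utp20 had 9.31, 9.21 and 9.29 in the knockout pools and 9.23, 9.21 and 9.19 in the heterozygote pools, a log2 fold change of 0.058 with overlap. Bms1 had 10.01, 10.05 and 9.87 in the knockout pools and 9.92, 9.996 and 9.90 in the heterozygote pools, a log2 fold change of 0.039. In Bms1 the highest and the lowest pools were both knockout. The other 11 genes of the group lay between the -0.081 of Noc4l and the 0.022 of Nol6, with Ltv1 (-0.080), Wdr75 (-0.066), Wdr43 (-0.040), Nop14 (-0.038), Rrp12 (-0.028), Tsr1 (-0.023), Utp15 (-0.015), Utp3 (0.0056) and Heatr1 (0.014) between them. In all 11 the pools of the genotypes overlapped.

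The large subunit group held 10 measured genes, 8 of them negative (5 after quantile normalization or cyclic loess), with a median of -0.039, and also the gene of the set with the highest log2 fold change. Rrs1 takes part in bringing the ribosomal RNA-protein module with the smallest ribosomal RNA into the large subunit. Its log2 intensity was 9.73, 9.91 and 10.004 in the knockout pools and 9.62, 9.72 and 9.62 in the heterozygote pools. Knockout pool 1 was almost level with heterozygote pool 2, and the groups did not overlap. The log2 fold change was 0.23, or 1.17-fold (95% confidence interval 0.05 to 0.41, unadjusted p = 0.0207, limma adjusted p = 0.413). It stayed positive in all 15 alternatives, between 0.17 and 0.30, with an unadjusted p under 0.05 in 11 of them and not without knockout pool 2, knockout pool 3, heterozygote pool 1 or heterozygote pool 3. The range of its adjusted p was 0.285 to 0.660.

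Noc3l, a pre-ribosome export factor in yeast, had 8.81, 8.91 and 8.87 in the knockout pools and 8.96, 8.92 and 8.91 in the heterozygote pools. Its groups were separate by a very small margin, with a log2 fold change of -0.067. Nop16 had 10.08, 10.06 and 9.94 in the knockout pools and 10.12, 10.06 and 10.07 in the heterozygote pools, a log2 fold change of -0.058 with overlap. Bop1, Pes1 and Wdr12 form the PeBoW complex of large subunit maturation, and their log2 fold changes were -0.049, -0.056 and 0.0074. Wdr12 had 9.70, 9.67 and 9.57 in the knockout pools and 9.66, 9.61 and 9.66 in the heterozygote pools, with overlap. The remaining genes were nucleostemin (Gnl3, -0.048, no overlap), Sbds (-0.030), Rrp1b (-0.0089) and the ribosomal RNA methyltransferase Nop2 (-0.0014), the last 3 with overlap.

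For 3 genes the array listed more than 1 probe set, and for Fbl and Wdr12 the row used was not numbered with the gene's own chromosome. Probe set numbers ran along the chromosomes, so that 96.86% of all probe sets, and 46 of the 49 rows annotated to genes of the set, were numbered among neighbours of their own chromosome. The brighter Fbl row lay among probe sets of chromosome 17 (8 of 10 neighbours), while Fbl is on chromosome 7, and the brighter Wdr12 row lay among those of chromosome 7 (10 of 10 neighbours), while Wdr12 is on chromosome 1. The Fbl row numbered with its own chromosome had 8.99, 8.77 and 8.81 in the knockout pools and 8.76, 8.85 and 8.81 in the heterozygote pools, a log2 fold change of 0.049. The Wdr12 row numbered with its own chromosome had 9.34, 9.33 and 9.48 in the knockout pools and 9.43, 9.21 and 9.35 in the heterozygote pools, a log2 fold change of 0.054. Both overlapped between genotypes, as did the brighter rows. Whether the brighter rows, whose values stand for Fbl and Wdr12 elsewhere in this report, measure these genes was not tested.

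**Figure D4:**
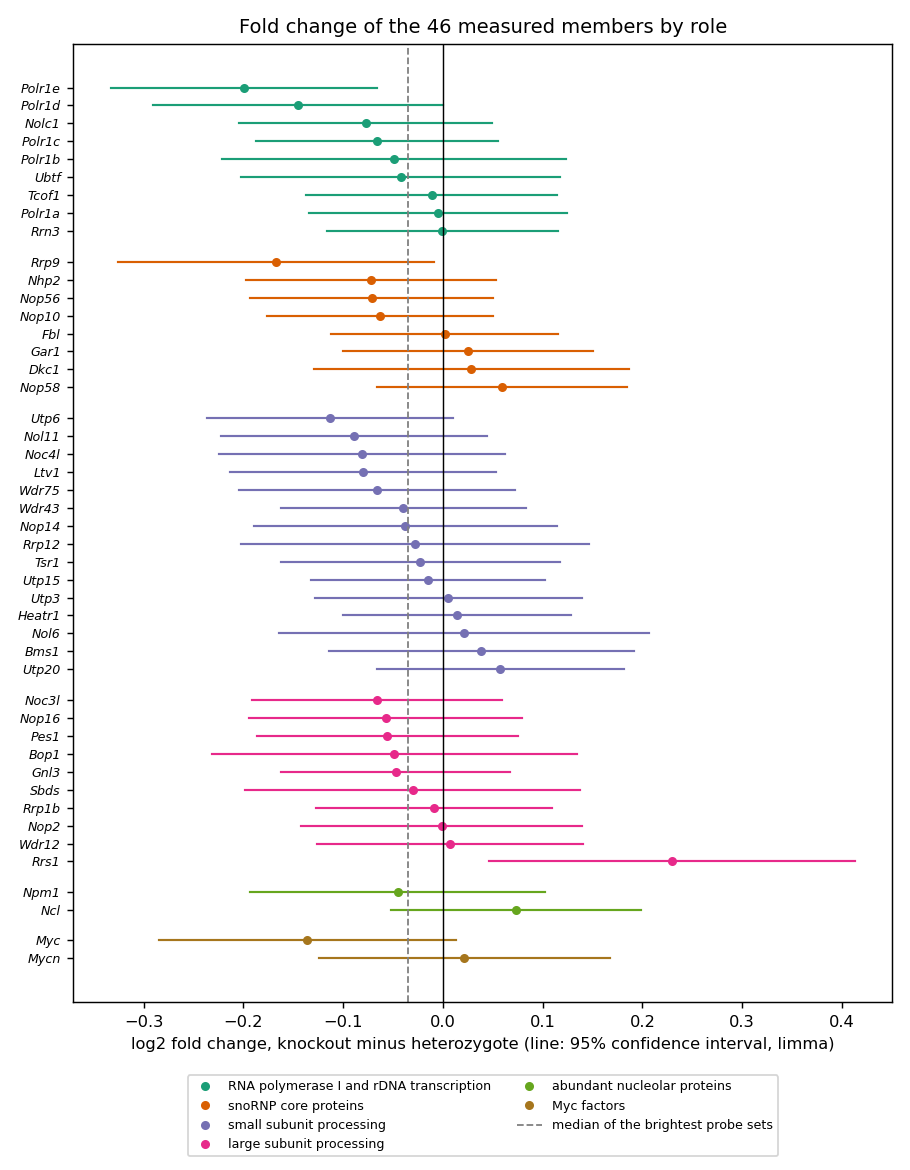
Log2 fold change (knockout minus heterozygote) of the 46 measured genes, grouped by role and sorted within each group, with lines for the 95% confidence interval of the limma fit and a dashed line at the median of the 7263 brightest probe sets (-0.035). The intervals of Polr1e, Polr1d and Rrp9 lie below 0 and that of Rrs1 above it, and all others include 0.

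The abundant nucleolar proteins and the Myc genes each included 1 negative and 1 positive log2 fold change. Ncl, the RNA-binding protein nucleolin, had 11.91, 11.93 and 11.93 in the knockout pools and 11.89, 11.87 and 11.79 in the heterozygote pools. Every knockout pool was higher, and the log2 fold change was 0.073 (limma adjusted p = 0.649). Npm1, the histone chaperone nucleophosmin, had 11.99, 12.12 and 12.16 in the knockout pools and 12.09, 12.15 and 12.16 in the heterozygote pools, with overlap and a log2 fold change of -0.045.

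Myc had log2 intensities of 9.95, 10.09 and 9.95 in the knockout pools and 10.09, 10.20 and 10.10 in the heterozygote pools. Knockout pool 2 was just below the lowest heterozygote pool, so that the groups did not overlap, and the log2 fold change was -0.14 (95% confidence interval -0.29 to 0.01, limma adjusted p = 0.497). Mycn, the family member of neural progenitors, had 8.85, 8.90 and 8.77 in the knockout pools and 8.77, 8.90 and 8.79 in the heterozygote pools. Its groups overlapped, and the log2 fold change was 0.022 (95% confidence interval -0.12 to 0.17).

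The promoters were read to show what the genes share in sequence. RefSeq windows (build GRCm38.p6, 250 bases before to 50 after the start, 1 window per gene) were at hand for 37 of the 47 genes, among them Noc2l, which was not measured. The E-box CACGTG, the element that Myc with its partner Max binds, stood in 8 of the 37 (21.62%), against 1957 of 27025 windows of all genes (7.24%). The promoters of the set were rich in CG dinucleotides, with a median of 19 per window against 7 in all windows. Of the 7682 windows with at least 19 the E-box stood in 11.78%, while the 37 windows of the set were not limited in this way. The CCAAT box (CCAAT on either strand) stood in 12 of the 37 (32.43%), against 37.92% of all windows and 34.33% of the 7682.

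The genes with the E-box were Ltv1, Nol11, Nop2, Pes1, Rrn3, Tsr1, Utp20 and Wdr43, with a median log2 fold change of -0.031, and the 28 measured genes with a window but no E-box had a median of -0.045. The windows of Polr1e and Rrp9, with the lowest log2 fold changes in the set, are shown beside that of Rrn3, whose log2 fold change was -0.0004 and which alone held 2 E-boxes, beginning 215 and 48 bases before the start. They are printed 5′ to 3′ on the gene's strand, with E-boxes and CCAAT boxes in capitals, and no E-box overlapped a CCAAT box. Polr1e held neither, and Rrp9 held 2 CCAAT boxes, at 126 and 85 bases before the start. A match of letters is no evidence of binding in these heads.
Polr1e, chr4:45018359-45018658, + strand: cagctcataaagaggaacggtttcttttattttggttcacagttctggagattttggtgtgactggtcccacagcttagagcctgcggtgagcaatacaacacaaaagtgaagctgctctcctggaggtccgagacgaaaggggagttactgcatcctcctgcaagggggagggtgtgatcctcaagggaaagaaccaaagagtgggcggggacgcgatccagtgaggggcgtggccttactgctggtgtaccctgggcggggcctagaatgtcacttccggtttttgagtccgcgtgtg
Rrp9, chr9:106477059-106477358, + strand: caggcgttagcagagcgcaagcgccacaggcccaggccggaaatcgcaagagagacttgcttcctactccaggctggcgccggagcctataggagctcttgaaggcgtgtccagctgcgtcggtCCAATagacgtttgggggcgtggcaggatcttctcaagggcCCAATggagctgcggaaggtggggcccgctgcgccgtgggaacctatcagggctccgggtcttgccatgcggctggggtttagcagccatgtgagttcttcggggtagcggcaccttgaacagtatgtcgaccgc
Rrn3, chr16:13780449-13780748, + strand: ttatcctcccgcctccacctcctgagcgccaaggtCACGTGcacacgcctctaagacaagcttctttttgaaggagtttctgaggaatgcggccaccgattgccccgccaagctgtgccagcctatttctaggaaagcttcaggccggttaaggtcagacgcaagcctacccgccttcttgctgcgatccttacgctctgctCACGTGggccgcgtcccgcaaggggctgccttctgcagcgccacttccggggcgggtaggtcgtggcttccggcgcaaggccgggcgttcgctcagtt

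Other genes of the same pathway had values much like those of the set. Of 120 further measured genes (other polymerase I factors, subunits shared by all 3 polymerases, processing factors of both subunits, snoRNP assembly and the RNA exosome), none passed an adjusted p under 0.05 in limma, and 114 were among the 7263 brightest probe sets. At an unadjusted p under 0.05, 5 were lower (4.17%) and 0 higher, against 4.66% and 5.97% of all probe sets and 6.71% and 0.716% of the 7263 brightest. A negative log2 fold change was found in 98 (81.7%), with a median of -0.049, against 70.2% of the 7263 brightest. Knockout pools all lay below heterozygote pools in 28 (23.3%), against 9.03% of all and 16.8% of the 7263 brightest probe sets, and all above in 1, Taf1d (0.833%), against 8.03% and 3.06%. The polymerase I subunit Znrd1 had 9.35, 9.55 and 9.60 in the knockout pools and 9.60, 9.71 and 9.74 in the heterozygote pools, a log2 fold change of -0.19 (limma adjusted p = 0.468). Knockout pool 3 and heterozygote pool 1 of Znrd1 were nearly equal, and the groups did not overlap. Taf1d, of the factor that selects the polymerase I promoter, had 11.85, 11.83 and 11.84 in the knockout pools and 11.79, 11.72 and 11.63 in the heterozygote pools, a log2 fold change of 0.13 (limma adjusted p = 0.489).

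All 5 subunits shared by the 3 nuclear polymerases were negative, also after quantile normalization and cyclic loess, and in the deposited values they ranged from -0.17 for Polr2f to -0.046 for Polr2h. Polr2f had 10.43, 10.38 and 10.44 in the knockout pools and 10.55, 10.59 and 10.62 in the heterozygote pools, with a 95% confidence interval of -0.29 to -0.05 (limma adjusted p = 0.399). Its pools lay close together within each genotype and did not overlap between them. Of 37 other small subunit factors 31 were negative (median -0.058), from Dimt1 (-0.22) to Fcf1 (0.10). At an unadjusted p under 0.05, Imp3 (-0.18), Emg1 (-0.15) and Pno1 (-0.19) were lower. These are 8.11% of the 37, against 4.66% of all and 6.71% of the 7263 brightest probe sets, which hold 36 of the 37. Of 46 other large subunit factors 36 were negative (median -0.029), from Efl1 (-0.11) to Brix1 (0.090). The 10 genes of snoRNP assembly had a median of -0.070, from Znhit3 (-0.11) to Znhit6 (0.0035), and the 13 of the RNA exosome -0.037, from Exosc4 (-0.12) to Exosc8 (0.021). After quantile normalization 24 of the other small subunit factors, 20 of the other large subunit factors, 6 of the snoRNP assembly genes and 6 of the exosome genes were negative, and after cyclic loess 24, 23, 6 and 6.

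The head label was checked against cell type markers, and the pools differed in some of them. Of 14 neural ectoderm markers 10 were among the 7263 brightest probe sets. Their summed level was 12.30 to 12.36 on the log2 scale in the knockout pools and 12.28 to 12.39 in the heterozygote pools. Single markers differed in both directions, with log2 fold changes from -0.39 to 0.24. At an unadjusted p under 0.05 in limma, 3 were lower (21.4%) and 2 higher, against 4.66% and 5.97% of all probe sets. Heart markers were bright as well, with 9 of 11 among the 7263 brightest probe sets. Their log2 fold changes ran from -0.30 to 0.34, and 3 were lower (27.3%) and 0 higher at an unadjusted p under 0.05. The summed level of the heart markers was 14.02 to 14.08 in the knockout pools and 14.02 to 14.13 in the heterozygote pools. The pools labelled as heads thus also carried heart transcripts. The 11 visceral endoderm markers had a summed level of 11.92 in knockout pool 3, against 13.08 in the other knockout pools and 12.86 to 13.10 in the heterozygote pools. The 8 surface ectoderm markers were at 12.52 to 12.67 in the knockout pools and 12.75 to 12.80 in the heterozygote pools, and the embryonic globin Hba-x was at 7.02, 10.09 and 7.78 in the knockout pools and 7.02, 6.18 and 6.99 in the heterozygote pools. The part of these differences in the values of the ribosome genes was not tested.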

How the data were processed

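RNA of 6 pools of E8.5 heads was hybridised to mouse Gene ST arrays. The submitters' processing notes name RMA (background correction, normalization and summary per probe set) and Affymetrix Power Tools, in a version not given in the sources used here. As the authors left them, the deposited intensity values are on a linear scale from 2.53 to 11741 in 35556 rows, with array medians of 58.1 to 62.9. Log2 was taken of the deposited values without a further normalization. Gene symbols came from the platform annotation: 21789 rows had 1 symbol, 1621 several and 12146 none listed, and 21698 of the first matched RefSeq.

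The 21789 rows were fitted with limma 3.58.1 (R 4.3.3, lmFit and eBayes, knockout minus heterozygote, no covariate, two-sided, Benjamini-Hochberg over all rows), after a test on simulated data. The number of arrays limits the precision. The 7263 brightest rows were taken by the mean over all arrays. A summed level is log2 of a list's summed intensities. The genes and lists were chosen with earlier results of these data known, and all genes of the set are accounted for. Values in every pool are given for the polymerase I genes, Tcof1, Myc, Mycn, genes with an unadjusted p under 0.05 or with separate groups and a log2 fold change of 0.1 or more, and the extremes of each role group. Alternatives changed the rows tested, the probe sets per gene, the scaling between arrays, the variance model, the array weights and the block, or left out 1 pool.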

Additional observations from a re-analysis of the deposited data

How the results depend on the processing

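No gene of the set passed an adjusted p under 0.05 in any of the 15 alternatives. The count lower at an unadjusted p under 0.05, which was 3, was 5 without dim probe sets (mean log2 under 6) and 5 with an intensity trend and robust variances, and 1 with all rows tested, 1 after quantile normalization and 1 after cyclic loess. The share lower over everything tested moved too, from 4.66% to 9.64% without dim probe sets and 6.38% with the trend and robust variances. It was 3.5% with all rows, 4.13% after quantile normalization and 4.26% after cyclic loess. The count higher, which was 1, was 2 with the trend and robust variances, where 1055 of all 21789 probe sets were higher. With 1 pool left out these counts were 1 to 3 and 0 to 1. In those fits 2.84% to 4.94% of all probe sets were lower, and 1028 to 1383 of the 21789 were higher. The median of the set was -0.001 after quantile normalization, -0.0026 after cyclic loess and -0.046 to -0.016 with 1 pool left out. The median of the 7263 brightest probe sets moved to 0.001 and 0.0005 under these normalizations.

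Of the genes given by pool, some changed sign. After quantile normalization the log2 fold changes were 0.024 for Polr1a, 0.033 for Rrn3 and 0.033 for Tcof1, after cyclic loess 0.030 for Polr1a, 0.033 for Rrn3 and 0.031 for Tcof1, and with array weights 0.0005 for Rrn3. With 1 pool left out the ranges were -0.027 to 0.026 for Polr1a, -0.091 to 0.016 for Polr1b, -0.0097 to 0.015 for Rrn3, -0.034 to 0.015 for Tcof1, -0.086 to 0.0034 for Ubtf, -0.025 to 0.079 for Dkc1, -0.019 to 0.045 for Wdr12, -0.082 to 0.0063 for Npm1 and -0.0089 to 0.060 for Mycn.

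The genotypes share replicate numbers, and the correlations of deviations between same-numbered pools were 8e-04, 0.106 and -0.0132 for numbers 1 to 3. The value for number 2 was the highest of the 9 pairs of pools, and these 2 pools were also alike in their low Xist, but numbers 1 and 3 were near 0 and the labels give no shared litter or batch, so the numbers were not taken to pair the samples. With the replicate block, 3 genes were lower and 1 higher at an unadjusted p under 0.05, and the lowest adjusted p in the set was 0.469. Over all 21789 probe sets 3.95% were then lower and 1320 probe sets higher.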

Other observations

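Genes next to the ribosome pathway were read for the same comparison. RNA polymerase III, which makes the smallest ribosomal RNA and transfer RNAs, was represented by 19 measured genes, 17 of them with a negative log2 fold change, with a median of -0.077. Of the 19, 17 were among the 7263 brightest probe sets, 70.2% of which were negative, and after quantile normalization or cyclic loess 12 of the 19 were negative. None passed an adjusted p under 0.05 in limma, and 2 were lower at an unadjusted p under 0.05 (10.5%, against 4.66% of all and 6.71% of the 7263 brightest probe sets). Brf2, an initiation factor, had 6.90, 6.96 and 7.06 in the knockout pools and 7.35, 7.13 and 7.09 in the heterozygote pools, a log2 fold change of -0.22 (limma adjusted p = 0.429), and Gtf3c5 had one of -0.18. The highest was Polr3gl, at 0.12. In 7 of the 19 (36.8%) every knockout pool lay below every heterozygote pool, against 9.03% of all and 16.8% of the 7263 brightest probe sets.

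Among 10 other genes of the wider Myc network, 6 were negative (4 after quantile normalization or cyclic loess) and the median was -0.017. They ranged from Mlxip (-0.19, limma adjusted p = 0.421) to Mxd1 (0.11). Trp53 target genes, which respond to nucleolar stress, had a median of -0.0060 over 13 measured genes, 7 of them negative (4 after quantile normalization, 5 after cyclic loess), from Rrm2b (-0.16, limma adjusted p = 0.466) to Ccng1 (0.14, limma adjusted p = 0.554), and none passed an adjusted p under 0.05. Cdkn1a and Bax had no row of their own symbol alone and are not analysed here.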
